A study of Homo sapiens with 14 samples.

Results

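Ubiquitylated histone H2A (uH2A) was mapped with a rabbit antibody from Cell Signaling with and without a stable knockdown of EED in DU145 cells, an established line from human prostate cancer. All peaks that the authors called with this antibody are described, 11327 in EED knockdown cells and 27077 in control cells. Together they are 38404 of the 227479 peaks of the series, which holds 14 libraries of chromatin immunoprecipitation followed by sequencing (ChIP-seq), 1 for each of 7 antibodies in each of the 2 cell lines. The knockdown cells carry a construct labelled sh3 and the control cells a Scramble construct, and both were kept under puromycin. The same construct label stands in the title of each knockdown library, so the depletion of EED and other actions of that construct cannot be told apart. The sources used here do not say whether either line is a clone or a pool.

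uH2A is placed by Polycomb repressive complex PRC1, whose ubiquitin ligases are RING1A and RING1B and in which BMI1 is a partner of these ligases. EED is a core subunit of PRC2, the complex that trimethylates histone H3 to H3K27me3, and it also binds that mark. PRC1 can be recruited through H3K27me3 or without it, and together the complexes are known for keeping developmental genes silent. The comparison of both lists asks what becomes of uH2A sites when EED is depleted.

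Each cell line had 1 library per antibody. No difference below has a replicate check, no p-value was computed, and the intervals given are 95% intervals that cover counting error only and treat peaks as independent. The sources used here give no read totals, the sequencing depth behind each list is unknown, and depth and knockdown cannot be told apart. The list of the EED antibody held 1372 peaks in knockdown cells and 13082 in control cells, a ratio of 0.105. Over all 7 antibodies, control lists held 191347 of the 227479 peaks, so fewer knockdown peaks were not particular to EED. The lower number for EED therefore does not by itself check the labels. Coordinates are hg19, and regions are named by position, without genes.

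The lists differed most in their short peaks. The knockdown list had 0.418 peaks for each control peak (exact interval 0.409 to 0.428) and covered 2.99 Mb, against 6.10 Mb in control cells. Among peaks of 75 to 100 bp there were 2425 in knockdown cells and 6363 in control cells, a ratio of 0.381 (0.364 to 0.399). The ratio was 0.379 at 125 to 200 bp, 0.393 at 225 to 300 bp and 0.491 at 325 to 500 bp. At 525 to 975 bp it reached 0.751 (0.689 to 0.818), with 934 knockdown and 1244 control peaks. Peaks of 1 kb or more numbered 207 in knockdown cells and 215 in control cells, and their ratio of 0.963 had an interval that includes 1 (0.792 to 1.17). Long peaks of the rabbit antibody were therefore about as numerous in both lines, while its short ones were fewer in knockdown cells. The other antibody to uH2A in the series, from mouse, had 7 peaks of 1 kb or more in knockdown cells and 58 in control cells.

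The knockdown list was accordingly made up of longer peaks. Its median length was 200 bp and its mean 264 bp, against a median of 175 bp and a mean of 225 bp in control cells. The length at the upper 5% of the list was 700 bp in knockdown cells and 525 bp in control cells, and 1.83% of knockdown peaks (1.59 to 2.09) reached 1 kb, against 0.794% of control peaks (0.692 to 0.907). This shift depends on the number of peaks called. When the control list was limited to its tallest 11327 peaks, the median difference became -75 bp, so that the knockdown peaks were the shorter ones. With both lists limited to heights from the control median up, it was 50 bp.

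**Figure D1:**
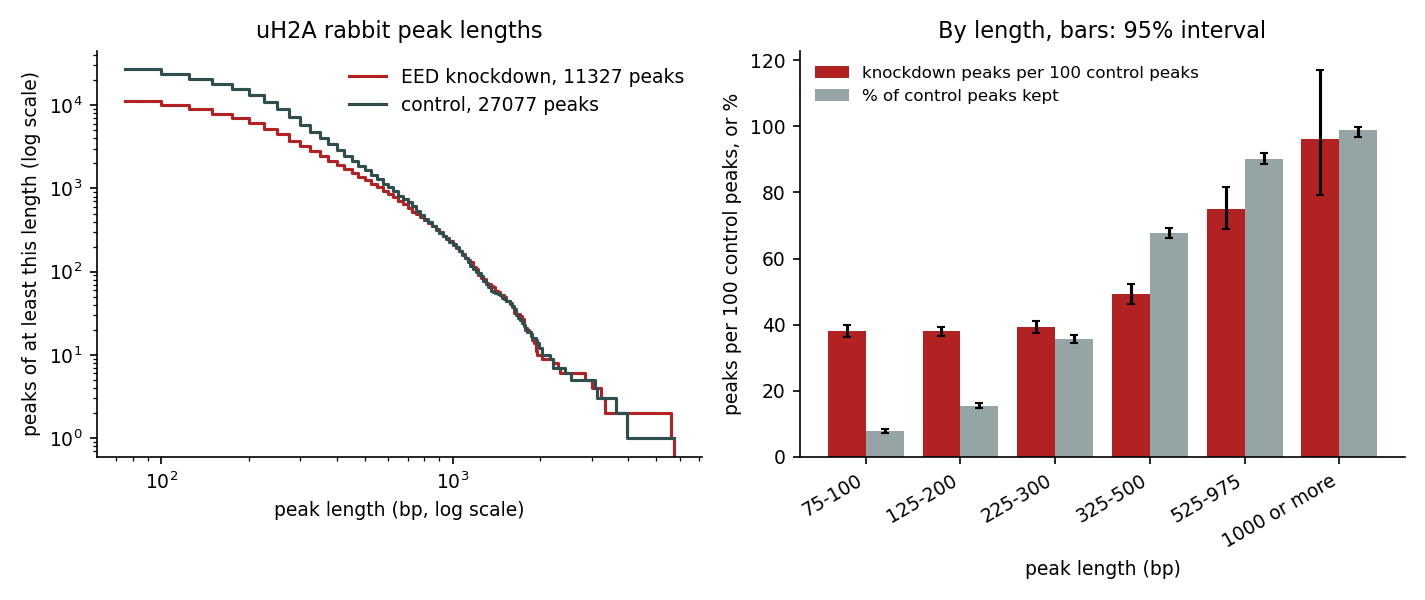
Lengths of uH2A rabbit peaks. The left panel gives the number of peaks of at least a given length in bp in EED knockdown and control cells, both axes on log scales; the right panel gives, by length class in bp, the number of knockdown peaks per 100 control peaks with its exact interval and the percentage of control peaks kept with its Clopper-Pearson interval. The curves meet at about 1 kb, where 207 knockdown and 215 control peaks remained, and the share kept ran from 7.67% in the shortest class to 99.1% in the longest.

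A control peak was called kept when it shared at least 1 bp with a knockdown peak and lost otherwise, so a lost site is one where no peak was called and weaker signal is not seen. Of all 27077 control peaks 28.8% were kept (7807 peaks), against 11.1% for the pooled control peaks of all 7 antibodies. This pool includes the rabbit antibody itself, and a share kept is limited by the size of the knockdown list. Knockdown peaks per control peak were 0.418 for the rabbit antibody, 0.211 for the mouse antibody and 0.105 for EED. These shares kept are therefore not matched on list size. The kept peaks were the long ones. Their median length was 300 bp (quartiles 200 and 425 bp), against 150 bp for the 19270 lost peaks (100 and 225 bp), and they held 45.9% of the control length. By length the share kept was 7.67% at 75 to 100 bp, 15.4% at 125 to 200 bp, 35.6% at 225 to 300 bp and 67.7% at 325 to 500 bp. It was 90.3% at 525 to 975 bp (88.5 to 91.9) and 99.1% at 1 kb or more, where 213 of 215 control peaks were kept.

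Length and height moved together, so length was also compared within 4 classes of control peak height, each with about the same number of peaks. Control peaks of 275 bp or more were kept at 65.3% and those of 125 bp or less at 8.52%, a difference of 56.8 percentage points. Within these classes the difference was 20.5 points (10.7 to 32.8) in the lowest class, 22.3 (17.3 to 27.7) in the second and 21.0 (17.1 to 24.6) in the third, a mean of 21.3 points. The tallest class held only 19 short peaks and gives no value. No lost peak was far above the rest of the list: the tallest 3 reached 2.61, 2.56 and 2.37 times the median control height. Long control peaks were thus kept more often than short ones of similar height, by less than the pooled difference.

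The longest peaks stood at the same places in both lines. The longest knockdown peak, 5600 bp at chr16:1785076-1790675, lay within the longest control peak, 5750 bp at chr16:1784976-1790725. The next sites in order of length were chr7:16436451-16440400, with 3950 bp in knockdown cells and 3625 bp in control cells, and chr8:145825401-145828625, with 3225 bp in knockdown cells and 3325 bp in control cells. Sites at chr3:195510651-195513775 (3125 bp in knockdown cells, 3075 bp in control cells) and chr10:134633901-134636750 (2850 bp in knockdown cells, 3000 bp in control cells) completed the 5 longest in each list. EED, BMI1 and uH2A mouse antibody peaks of control cells lay on all 5 of these sites. In knockdown cells an EED peak lay on 3 of them, the ones on chromosomes 16, 7 and 3. A uH2A mouse antibody peak then lay only on the one on chromosome 3. At the sites on chromosomes 8 and 10, where neither was called, the rabbit peak length was close to that of control cells.

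In the other direction, 7906 knockdown peaks lay on a control peak and 3421 did not, so 30.2% of the knockdown list was new. Shared bases came to 1.96 Mb, which is 65.4% of the knockdown length and 32.1% of the control length. New peaks were short: their median was 150 bp, against 225 bp for knockdown peaks on a control peak. The new share was 47.0% of knockdown peaks of 75 to 100 bp, 23.05% at 225 to 300 bp and 8.70% (5.24 to 13.4) at 1 kb or more. By height it was 44.5% in the lowest of 4 equal classes of the knockdown list and 17.6% in the tallest. New peaks were usually not shifted edges of control peaks. The median distance to the nearest control peak was 7300 bp, 245 of them (7.16%) lay within 100 bp of one, and 749 (21.9%) lay within 1000 bp.

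Kept peaks were narrower in knockdown cells. Of the kept peaks, 7128 overlapped a single knockdown peak that overlapped no other control peak, and these 1-to-1 pairs had a median length of 225 bp in knockdown cells and 300 bp in control cells. The median log2 ratio of knockdown to control length was -0.35 (-0.36 to -0.32), or -0.19 among peaks with heights from the control median up. The knockdown peak was shorter in 5002 pairs (70.2%), of equal length in 550 and longer in 1576 (22.1%). It was at least 1.5-fold shorter in 37.3% of pairs (2657) and at least 1.5-fold longer in 9.69% (691). The higher median length of the knockdown list and the shortening of its kept peaks are both measured: lost control peaks were mostly short, and kept ones were mostly narrower.

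The narrowing came from both sides. The knockdown peak lay inside its control peak in 4053 pairs (56.9%) and contained it in 942 (13.2%), and the edges were staggered in 1963 (27.5%) and identical in 170. The left and the right edge each moved inward by a median of 25 bp. The position that the offset column gives within the peak, taken here as its summit, shifted by a median of 38 bp (37.0 to 39.5) without a preferred side, and by at most 50 bp in 59.8% of pairs. Peak height, which was not normalised here between libraries, had a median of 37.3 in the knockdown peaks and 50 in the control peaks of these pairs. The height change and the length change rose and fell together over the pairs (Spearman's rho 0.68, a description over 7128 pairs of the same 2 libraries), so lower and narrower kept peaks are not independent results.

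How length changed with length depends on which list sorts the pairs, since sorting by one list selects on its own values. Control peaks of 75 to 100 bp had a median log2 ratio of 0.81, and knockdown peaks of 75 to 100 bp one of -1.32. Sorted by the geometric mean of both lengths, which favours neither list, the median over 4 classes was -0.68 in the shortest, -0.51 and -0.35 in the middle ones and -0.17 in the longest. By this measure the longest class lost the smallest part of its length. Sorted by control length instead, pairs of 1 kb or more had medians of 1075 bp in knockdown cells and 1125 bp in control cells over 135 pairs.

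**Figure D2:**
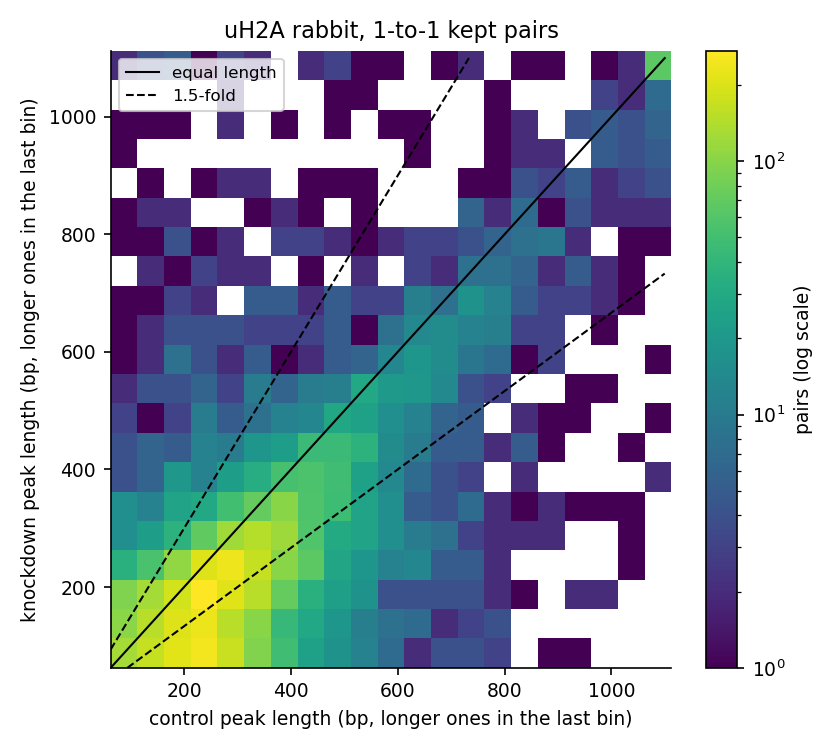
Length in EED knockdown cells (vertical axis, bp) against length in control cells (horizontal axis, bp) for the 7128 1-to-1 pairs of kept uH2A rabbit peaks, with the number of pairs per bin on a log colour scale and longer peaks gathered in the last bins. The solid line marks equal length and the dashed lines a 1.5-fold difference; 70.2% of pairs were shorter in knockdown cells and lie below the solid line.

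The same measure was taken for the other antibodies. The median log2 length ratio of 1-to-1 pairs was -0.51 (-0.58 to -0.49) for the uH2A mouse antibody over 3300 pairs and -0.68 (-0.81 to -0.65) for EED over 710 pairs. It was -0.46 for RING1A, -0.36 for BMI1 and -0.26 for RING1B. H3K27me3 was the exception, with a median of 0.02 (0 to 0.13) over 1122 pairs. Narrower kept peaks were therefore seen with 6 of 7 antibodies and were not particular to the uH2A rabbit antibody. RING1A, RING1B, BMI1 and H3K27me3 come from libraries with another culture description and another way of naming chromosomes than EED and both uH2A antibodies, and set and antibody cannot be told apart.

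The largest single changes in length, among pairs with both heights at or above the medians of their lists, show both directions. At chr1:7628351-7628475 the peak was 1425 bp long in knockdown cells and 125 bp in control cells, a log2 ratio of 3.51. Gains of similar size were seen at chr17:76474076-76474175, with 1075 bp in knockdown cells and 100 bp in control cells, and at chr6:34040076-34040200, with 1200 bp in knockdown cells and 125 bp in control cells. No other antibody had a peak in either line on these 3 intervals, which are those of the control peaks. The longer knockdown peaks reach beyond them. The largest loss was at chr14:51296776-51297250, with 100 bp in knockdown cells and 475 bp in control cells (log2 ratio -2.25), where EED, RING1A, BMI1 and the uH2A mouse antibody had control peaks. At chr14:51560651-51561450 the peak had 175 bp in knockdown cells and 800 bp in control cells, and 5 of 6 other antibodies had control peaks there. At chr9:36923251-36923800 it had 125 bp in knockdown cells and 550 bp in control cells, with no other antibody.

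uH2A sites on control EED peaks were kept more often. Of kept control peaks 45.1% lay on a control EED peak (44.0 to 46.2), against 14.3% of lost ones (13.8 to 14.8), a difference of 30.8 points (Newcombe interval 29.6 to 32.0). Tall peaks are both kept more often and on EED more often, and within the 4 classes of uH2A height the mean difference was 16.2 points. It was above 0 in each class, from 11.2 points (8.41 to 14.3) in the second to 27.7 (25.2 to 30.1) in the tallest. The difference also held at matched length: among peaks of 225 to 300 bp, 52.0% of 1647 on EED and 29.8% of 4638 off EED were kept, and among peaks of 325 to 500 bp, 81.8% of 1432 on EED and 57.1% of 1903 off EED.

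The EED peak itself was usually gone in knockdown cells. Sites with an EED peak in control cells and none in knockdown cells numbered 5672, and 55.2% of them (53.9 to 56.5) kept uH2A. Where an EED peak was still called, uH2A was kept at 65.3% of 596 sites (61.3 to 69.1), and where EED had no control peak, at 20.6% of 20809 sites (20.1 to 21.2). Median uH2A length differed between these classes as well, at 300 bp with EED in both lines, 250 bp with EED in control cells only and 175 bp without it.

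In percentage points, the PRC1 proteins and the uH2A mouse antibody separated kept from lost sites less. BMI1 lay on 25.3% of kept and 12.0% of lost peaks, a difference of 13.4 points that fell to 4.98 within height classes. The uH2A mouse antibody, a second antibody to the same mark, lay on 35.6% of kept and 25.3% of lost peaks, and RING1A on 35.0% of kept and 26.5% of lost peaks. Within height classes the difference was 0.877 points for the mouse antibody and 0.432 for RING1A. These are means over classes of opposite sign: the mouse antibody had 3.69 points (0.394 to 7.32) in the lowest class and -3.22 (-5.81 to -0.651) in the tallest, and RING1A had 1.84 (-1.51 to 5.52) in the lowest and -3.54 (-6.11 to -0.984) in the tallest. RING1B lay on 3.32% of kept and 1.60% of lost peaks, and H3K27me3 on 11.3% of kept and 9.63% of lost peaks. Their differences within height classes were 0.481 points for RING1B and -0.211 for H3K27me3. RING1B covered only 2.10% of control uH2A peaks, against 23.1% for EED, which bounds its difference in points. At 225 to 300 bp, 45.0% of 149 peaks on RING1B and 35.4% of 6136 off it were kept (9.60 points, 1.75 to 17.7). The interval also excluded 0 in both shorter length classes, but included 0 in each longer length class and each height class. With overlaps of at least 50% of the uH2A peak in place of 1 bp and no matching on height, the difference was 17.7 points for EED, 3.94 for BMI1, 1.26 for the mouse antibody, 0.862 for RING1B, -0.567 for RING1A and -0.158 for H3K27me3. After matching on height, EED therefore showed the largest mean difference in points of the 6 other antibodies. The height classes are broad, the tallest running from 45.1 to 2207.61, and height and length were not matched together. Points also depend on how many uH2A peaks each antibody covered, so this is not an order of strength.

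Among longer uH2A peaks, those on RING1A were kept less often, a comparison not matched on height. Control peaks of 525 to 975 bp on a control RING1A peak were kept at 85.5% of 585 (82.4 to 88.2), against 94.5% of 659 off RING1A (92.5 to 96.1). At 325 to 500 bp the values were 64.04% on RING1A and 70.6% off it. The uH2A mouse antibody showed the same direction, with 87.7% kept on its peaks and 92.9% off them at 525 to 975 bp. So did H3K27me3, with 85.1% kept on its peaks and 91.2% off them at that length. BMI1 showed the opposite one, with 93.0% kept on its peaks and 88.6% off them at that length. The interval of each of these differences excludes 0, the nearest bound being 0.947 points for BMI1.

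**Figure D3:**
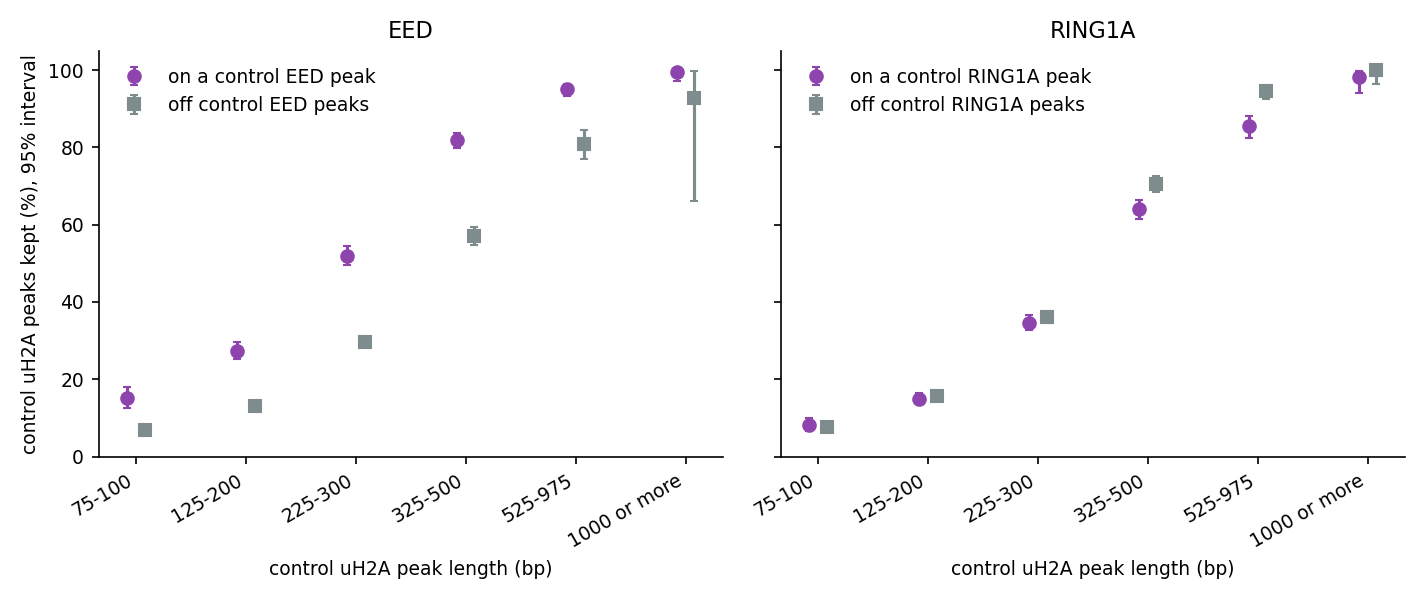
Percentage of control uH2A rabbit peaks kept in EED knockdown cells by control length in bp, for peaks on and off a control EED peak (left) and on and off a control RING1A peak (right); bars are 95% Clopper-Pearson intervals. Peaks on EED were kept more often in every length class, and peaks on RING1A less often at 325 to 500 bp and 525 to 975 bp.

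Most new peaks lay on no peak of another antibody, and this held for long and for short ones. Peaks of at least 525 bp, the upper 5% of control lengths, numbered 1141 in knockdown cells, of which 151 were new. A control EED peak lay on 2 of these 151 (1.32%, 0.161 to 4.70), against 700 of the 990 other long knockdown peaks (70.7%). No peak of any other antibody, in either line, lay on 139 of them (92.1%, 86.5 to 95.8). Few had a peak of another antibody in knockdown cells: EED lay on 4, BMI1 on 3, H3K27me3 on 5, RING1B on 4, RING1A on 1 and the uH2A mouse antibody on 0 of 151. The other 990 had a knockdown peak of BMI1 on 22.7%, of EED on 12.02% and of the uH2A mouse antibody on 5.76%. H3K27me3 lay on 5.45%, RING1A on 2.83% and RING1B on 1.41% of them. For H3K27me3, RING1A and RING1B the interval of the difference from new peaks includes 0. RING1B had the higher share on new peaks (2.65%). Among the 3270 new peaks under 525 bp, control EED lay on 7.25%. No peak of another antibody in either line lay on 74.8% of them, against 30.2% of knockdown peaks on a control peak. The latter were longer, with a median of 225 bp against 150 bp, and no match on length or height was made. RING1B of knockdown cells lay on 1.43% of all new peaks and 0.797% of knockdown peaks on a control peak. That difference was 0.635 points (0.224 to 1.12). For H3K27me3 of knockdown cells the shares were 2.60% and 3.04%, and the interval of the difference includes 0.

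The new long peaks were spread over the genome. Their median height of 64.3 was below the 73 of all long knockdown peaks. Of the 151, 120 (79.5%) were in the tallest of the 4 height classes of the knockdown list, they lay on 21 chromosomes, and 3 lay in high-signal windows. Their median distance to the nearest control uH2A peak was 6300 bp, and 60 of them were over 10000 bp away. The longest was 1675 bp at chr12:131248626-131250300, followed by 1600 bp at chr8:139754101-139755700 and 1575 bp at chr2:238120301-238121875. Those at chr12:125155976-125157375 (1400 bp) and chr2:230428076-230429400 (1325 bp) came next, and no other antibody had a peak on any of these 5 in either line. The uH2A mouse antibody was thus also without a peak at these 5. Its knockdown peaks lay on 5.76% and its control peaks on 31.2% of the 990 other long knockdown peaks. Its absence from 5 sites therefore does not set these apart.

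Peaks that became long showed an intermediate pattern. Over 179 long knockdown peaks at least 1.5-fold longer than their control peak, control EED lay on 32.4% (25.6 to 39.8), against 79.2% of 811 other long knockdown peaks. The uH2A mouse antibody lay on 5.03% of these 179 and on 37.0% of the 811. Matched on control length at 125 to 200 bp, pairs that became at least 1.5-fold longer were on the mouse antibody's control peaks in 9.62% of 260, against 31.4% of 392 that became at least 1.5-fold shorter, a difference of -21.8 points (-27.4 to -15.7). RING1A gave 12.3% of lengthened and 33.9% of shortened pairs. EED gave 20.0% of lengthened and 25.5% of shortened pairs, and the interval of that difference includes 0 (-11.8 to 1.15).

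Long control peaks that were lost were more often on RING1A, the uH2A mouse antibody and H3K27me3 than kept ones, and less often on EED and BMI1. Of 1459 control peaks of at least 525 bp, 123 were lost. RING1A lay on 70.7% of these (61.9 to 78.6), against 46.0% of the 1336 kept ones, and the uH2A mouse antibody on 64.2% of lost and 51.1% of kept ones. EED lay on 33.3% of lost (25.1 to 42.4) and 73.2% of kept ones. H3K27me3 lay on 22.0% of lost and 13.2% of kept ones, and BMI1 on 27.6% of lost and 42.2% of kept ones. The lost long peaks were also lower, with a median height of 48.2 against 80.1 in the kept ones, and the part of height in this was not tested.

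**Figure D4:**
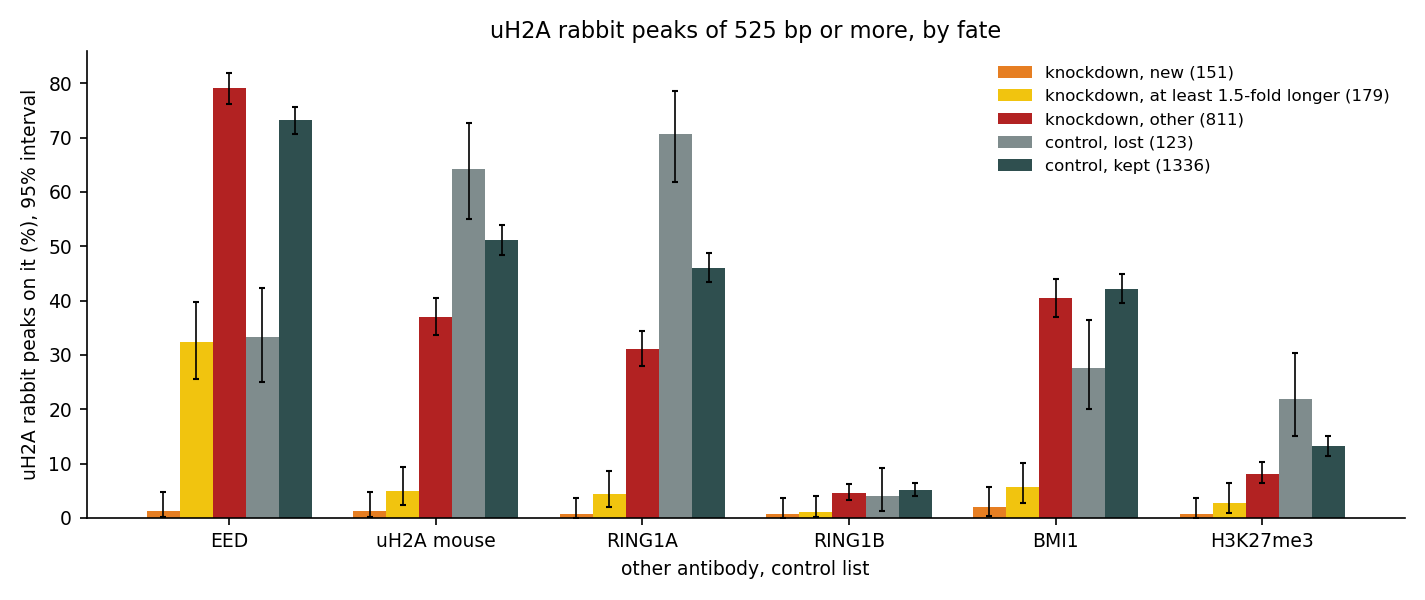
Percentage of uH2A rabbit peaks of 525 bp or more that lie on a control peak of each other antibody, by fate: new, at least 1.5-fold longer and other peaks of EED knockdown cells, and lost and kept peaks of control cells; bars are 95% Clopper-Pearson intervals. New peaks are near 0 for all 6 antibodies, and lost control peaks exceed kept ones for RING1A, the uH2A mouse antibody and H3K27me3 and fall below them for EED and BMI1.

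Knockdown peaks were less clustered in the full lists, and at equal peak numbers the direction depended on the distance. Another peak of the same list lay within 5000 bp of 42.7% of knockdown peaks (41.8 to 43.6) and 58.0% of control peaks (57.4 to 58.6). The median distance to the nearest peak of the list was 8475 bp in knockdown cells and 3100 bp in control cells. With the control list limited to its tallest 11327 peaks the control share was 44.4%, which leaves a difference of -1.73 points. Within 1000 bp the direction then turned: 24.3% of knockdown peaks (23.5 to 25.1) had a neighbour, against 21.6% of these control peaks (20.9 to 22.4). In the full lists, chains of peaks spaced within 5000 bp that held at least 5 peaks numbered 119 in knockdown cells and 710 in control cells. With the control list limited to its tallest 11327 peaks, such control chains numbered 158.

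Large control clusters mostly kept some of their peaks. Of 11376 control peaks standing alone 25.5% were kept, against 32.7% of 2084 peaks in chains of 10 or more. The difference between clustered and single peaks was 5.82 points, 2.85 where an overlap of 50% of the peak was required and 1.29 as a mean over height classes. In the tallest class the sign turned, with -2.51 points (-4.76 to -0.222). Among 153 chains of 10 or more control peaks, 5 kept no peak (3.27%) and none kept all. Among 2184 chains of at least 3, 576 held no knockdown peak at all (26.4%). These shares of chains depend on how many peaks a chain holds, and they were not compared with shares expected from that number.

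The largest clusters show the range. At chr5:1201701-1249750 there were 17 peaks in knockdown cells and 32 in control cells, with 17 control peaks kept. At chr1:156843526-156884800 there were 8 in knockdown cells and 31 in control cells. A cluster at chrX:30806651-30824775 was nearly whole, with 26 peaks over 9300 bp in knockdown cells and 30 peaks over 12375 bp in control cells, and 25 of the 30 were kept. At chr5:1026901-1055525 there were 17 peaks in knockdown cells and 20 in control cells. At chr16:46386301-46413500 the knockdown peaks were more numerous, 21 against 10 in control cells, at a site where all 6 other antibodies had peaks in both lines. The emptied clusters with the most peaks were chr21:44897376-44913550 with 0 peaks in knockdown cells and 12 in control cells, chr14:105153126-105162825 with 0 and 11, and chr9:136387051-136407575 with 0 and 11. RING1A and the uH2A mouse antibody had control peaks in each of these 3, and also in chr15:41218576-41230175 and chr17:36713676-36730175, where 10 control peaks each were left with 0. The same antibodies also had control peaks in the clusters on chromosomes 5 and 1 that kept peaks, so their presence does not set the emptied clusters apart.

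Very tall peaks were few and mostly lay in or next to windows where several antibodies had them. In the knockdown list 17 peaks exceeded 10 times the median height, 16 of them in high-signal windows. In the control list 11 did, 9 of them in such windows. High-signal windows are 100-kb windows where at least 2 other antibodies also had such peaks, together with both neighbouring windows. The 3 tallest new peaks lay side by side at chr6:58776426-58779375, over 1 Mb from any control peak. These high-signal windows held 0.945% of knockdown and 0.517% of control peaks, and the share of control peaks kept outside them was 28.8%. No input library was used here, so signal that arises with any antibody cannot be told apart from uH2A in them.

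Every autosome lost peaks, to different degrees. Among chromosomes with at least 200 control peaks, chromosome 13 had the highest share kept, 46.7% of 285 peaks (40.8 to 52.6), and the highest ratio, 201 peaks in knockdown cells to 285 in control cells (0.705, 0.586 to 0.848). Chromosomes 21 (34.6%) and 10 (33.8%) followed in the share kept, and chromosomes 2 (0.515) and 10 (0.497) in the ratio. Chromosome 15 was lowest in both, with 21.0% of 905 kept (18.4 to 23.8) and a ratio of 0.307. Chromosomes 11 (24.98%) and 14 (25.04%) were next in the share kept, and chromosomes 14 (0.325) and 17 (0.346) in the ratio. Chromosome 13 had an interval clear of the next chromosome, and all other neighbours in this order overlapped.

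The uH2A mouse antibody ranked chromosomes differently. It kept 2.33% of 172 peaks on chromosome 13 (0.637 to 5.85), the lowest autosome for that antibody, and 24.2% of 3342 on chromosome 14 (22.8 to 25.7), the highest. Chromosome 14 pairs of the rabbit antibody were the least often longer: 3.75% of 453 were at least 1.5-fold longer and 46.4% at least 1.5-fold shorter. Within chromosome 13, 55.1% of 156 peaks beyond 110 Mb were kept and 36.4% of 129 before it, a boundary set after the values were seen. Few peaks were on chromosomes X and Y, as the last numbers of the lists were read here by assumption. X had 73 in knockdown cells and 109 in control cells, of which 43.1% were kept, or 27.8% without its large cluster. Y had 31 in knockdown cells and 16 in control cells.

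Peaks near chromosome ends were kept more often. The outer 3 Mb of the chromosomes held 28.5% of knockdown peaks (27.6 to 29.3) and 24.7% of control peaks (24.2 to 25.2). Of the 6685 control peaks there 35.7% were kept (34.5 to 36.8), against 26.6% of the 20392 elsewhere (26.0 to 27.2), without matching on height. New peaks did not share this position, with 22.8% of them in the outer 3 Mb. In 1-Mb windows with at least 20 control peaks, of which there were 381, the share kept had a median of 26.9%. It was lowest, at 3.85% of 26 peaks, in chr18:8000001-9000000 and highest, at 83.3% of 30, in the window of the cluster on X. A neighbouring pair of windows on chromosome 6, chr6:168000001-169000000 and chr6:169000001-170000000, followed with 69.6% of 23 and 65.0% of 20.

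**Figure D5:**
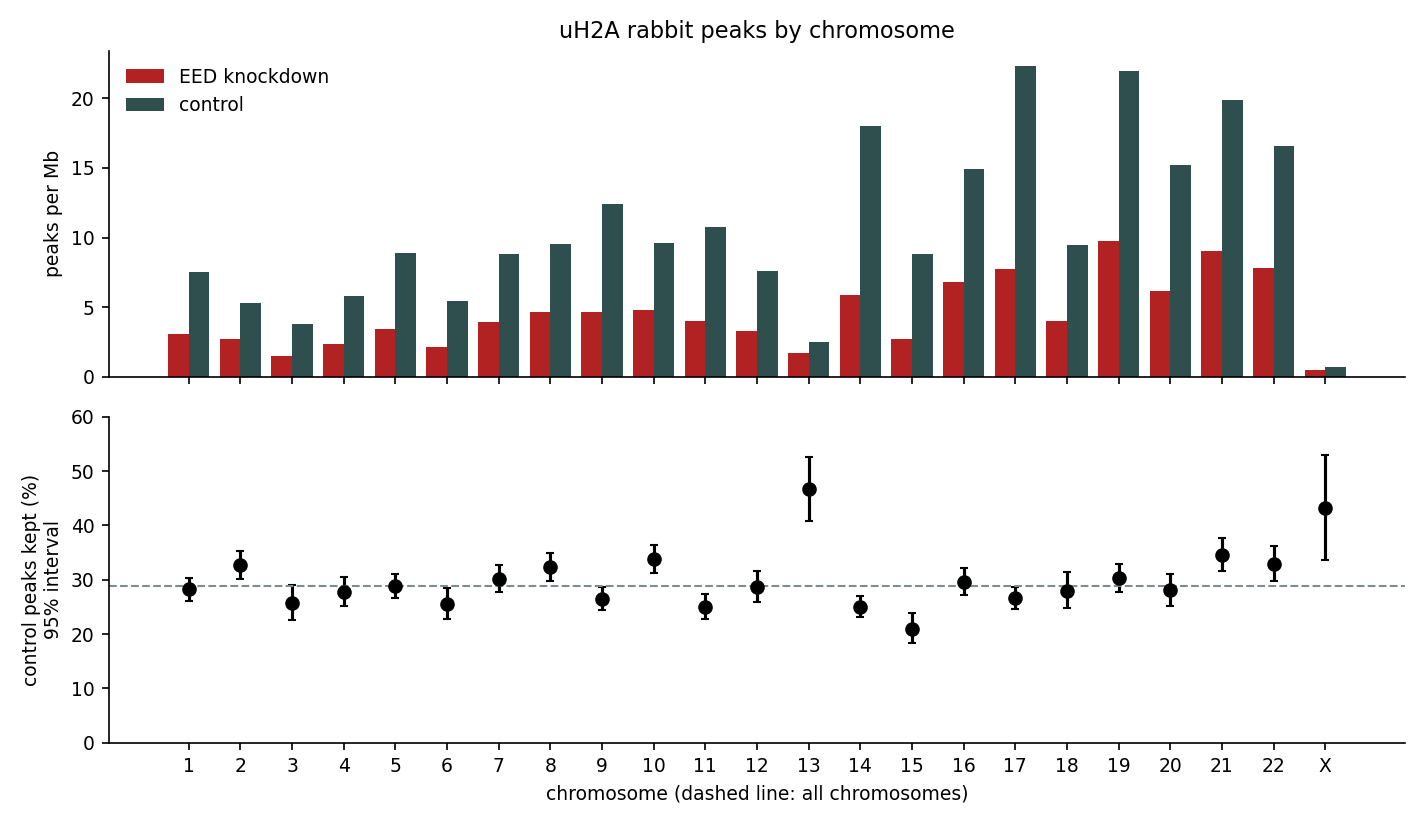
uH2A rabbit peaks by chromosome. The upper panel gives peaks per Mb in EED knockdown and control cells, and the lower panel the percentage of control peaks kept with 95% Clopper-Pearson intervals, the dashed line marking 28.8% over all chromosomes. Chromosome 13 lies highest of the autosomes at 46.7% and chromosome 15 lowest at 21.0%.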

How the data were processed

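Libraries were made of 10 to 20 ng of precipitated DNA and read for 40 nucleotides, each in its own lane of a HiSeq instrument, per the labels' protocols. The submitters' processing notes name Bowtie and hg19. Its version, and whether calling used an input, are not given in the sources used. The deposited lists bear the name of the HPeak caller and hold 7 columns without a header: position, length in steps of 25 bp, an offset taken here as the summit, a height and a score. Height is the authors' value and was read, from its range, as a signal that was not normalised between libraries here. The deposited score is negative throughout and was not used.

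Peaks counted as shared when they had 1 bp in common. Ratios carry exact conditional, shares Clopper-Pearson and differences Newcombe intervals at 95%. Height classes split a list into 4 by rank. A 100-kb window and both its neighbours count as high-signal when at least 2 other antibodies have a peak there over 10 times their median height. Named regions are the 3 tallest peaks each that were lost, kept or new, the 5 longest of each list, the 3 largest clusters, the 5 largest emptied clusters, the 3 largest length gains and losses and the extreme chromosomes. Regions outside that rule (the longest new peaks, 1-Mb windows, part of chromosome 13) were picked with their values in view. Comparisons and lists were chosen with earlier results of these data known. The overlap and pairing code was tested on simulated lists. Alternatives were height, overlap, distance and merging rules, equal peak numbers and matching on height. Computations used Python 3.11.15, numpy 2.4.6, pandas 2.3.3, scipy 1.17.1 and matplotlib 3.10.9.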

Additional observations from a re-analysis of the deposited data

Results flagged for a closer look

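The median length of the whole list moved in opposite directions with the 2 antibodies to uH2A. The median length in knockdown minus control cells was 25 bp with the rabbit antibody and -25 bp with the mouse antibody. The share of peaks of 1 kb or more changed by 1.03 percentage points with the rabbit antibody and by -0.0734 points with the mouse antibody. Both results stand out because the sign differs between the antibodies. Each antibody had 1 library per cell line, and neither difference was tested. At kept sites both antibodies moved the same way, with median log2 length ratios of -0.35 for the rabbit antibody and -0.51 for the mouse antibody, and at equal peak numbers the difference for the rabbit antibody was -75 bp.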

How the results depend on the processing

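No paired analysis was possible because each group has 1 library. Of 74 alternative values over 19 results, 29 stayed close to the value reported, 41 moved and 4 reversed; the causes were not tested. When both lists were limited to heights from the control median up, the number ratio was 0.391, the median length difference 50 bp, the share kept 29.4%, the new share 25.2% and the median log2 length ratio -0.19. Merging peaks within 1000 bp gave ratios of 0.441 for number and 0.429 for covered length. Equal numbers of peaks reversed the median length difference to -75 bp and gave 52.8% kept, 45.3% new, 55.03 points for long minus short, 3.48 for clustered minus isolated and -1.73 for the difference in clustering. Overlaps of at least 50% of a peak gave 22.5% kept, 35.7% new, 43.1 points for long minus short and 2.85 for clustered minus isolated. For kept minus lost they gave 17.7 points for EED, 1.26 for the mouse antibody, 0.862 for RING1B and 3.94 for BMI1, and reversed RING1A (-0.567) and H3K27me3 (-0.158). Counting peaks within 1000 bp as shared gave 37.1% kept, 23.6% new, and for kept minus lost 9.96 points for RING1A, 2.42 for RING1B, 14.8 for BMI1 and 4.27 for H3K27me3. Matching on height gave 21.3 points for long minus short, 1.29 for clustered minus isolated, 16.2 for EED, 0.877 for the mouse antibody, 0.432 for RING1A, 0.481 for RING1B and 4.98 for BMI1, and reversed H3K27me3 (-0.211). Reciprocal overlap of 50% gave a median log2 length ratio of -0.25 and a median summit shift of 32.5 bp. A cluster distance of 1000 bp gave 8.46 points for clustered minus isolated and -6.88 for the difference in clustering, and 20000 bp gave 4.40 points for clustered minus isolated. For the added comparison of new with other long knockdown peaks, a threshold of 1000 bp gave -82.5 points for EED and 74.6 for sites with no other antibody, and counting peaks within 1000 bp gave 52.9 for sites with no other antibody. Leaving out high-signal windows moved none of the results it was applied to. Depth per library is unknown and limits every number of peaks.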
